A study of Mus musculus with 12 samples.

Results

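Havcr1, Lcn2, Clu, Spp1, Sox9, Vcam1, Timp2 and Igfbp7 are transcripts used to follow injury and repair of the renal tubule. These 8 genes were taken by their symbols from the 50433 genes listed for tubular epithelial cells (TECs) and the 50434 listed for neutrophils (PMNs), and all 8 had a row in both tables. The samples were 12 bulk RNA-Seq libraries from wild-type male C57BL/6J mice, 8 to 12 weeks old, whose renal pedicles had been clamped on both sides to cause ischemia-reperfusion injury (IRI). Cells were collected 24 hours later. TECs were sorted from kidney as CD45- Prominin-1+ cells, with 3 libraries from mice given glutamine (as the dipeptide alanyl-glutamine, libraries 1, 2 and 3) and 3 from mice given vehicle (saline, libraries 3, 4 and 5). PMNs came from blood according to the labels, with 3 libraries of each treatment. Every library carried the injury, so the comparison is glutamine against vehicle after IRI, with no uninjured kidney in it. Nothing in the labels says that each library was a separate mouse, so p-values measure the spread between libraries, which may be technical in part.

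Ischemia strips proximal tubule cells of their brush border and kills some of them, and survivors dedifferentiate, arrest or divide, and then rebuild the epithelium. During this course the tubule induces secreted and surface proteins that are measured in urine as markers of acute kidney injury: KIM-1 is encoded by Havcr1, NGAL by Lcn2, and the product of TIMP-2 and IGFBP7 is read as a sign of cell cycle arrest. Sox9 marks cells that take part in repair, whereas persistent Vcam1 marks tubule cells in which repair has stalled.

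The libraries held 5397370 to 10223461 estimated counts in TECs and 20225246 to 21878446 in PMNs. Levels are CPM, the share of a library's counts on the usual scale, with libraries scaled by edgeR's trimmed mean of M values (TMM). The TEC libraries had the markers of their label: all 15 proximal tubule markers were above 0 in both groups, and their summed level ran from 13569 to 15406 CPM with vehicle and from 11810 to 20263 CPM with glutamine. Of these markers 13 to 15 reached 10 CPM in each library, and a large part of the sum was Kap, at 3903 to 11193 CPM. Thick ascending limb markers, mostly Umod, summed to 1178 to 2594 CPM in TECs, and distal and collecting duct markers to 205.9 to 535.1 CPM. Summed neutrophil markers reached 251.9 CPM and summed macrophage markers 146.4 CPM at most in TECs, while endothelial markers summed to 371.8 to 606.1 CPM and platelet and erythroid markers, mostly hemoglobin, to 312.1 to 2606 CPM, highest in glutamine library 2. The PMN libraries held 20775 to 71797 CPM of neutrophil markers and also 11937 to 26471 CPM of macrophage markers such as Cd74 and Lyz2. Proximal tubule markers summed to 333.5 to 560.8 CPM in all 6 PMN libraries, with Kap, an abundant proximal tubule transcript, at 186.7 to 402.0 CPM, although the label of these libraries is blood. PMN vehicle library 1 stood apart by the sum of its thick ascending limb markers, at 1077 CPM against 4.23 to 43.6 CPM in the other PMN libraries, and nearly all of it was Umod. PMN vehicle library 2 stood apart by endothelial markers, with a sum of 2868 CPM against 2.76 to 119.7 CPM, and by podocyte markers, with a sum of 1676 CPM against at most 8.78 CPM.

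In TECs no marker passed the test between treatments. The measured level of Havcr1, the transcript of KIM-1, was lower in every glutamine library than in any vehicle library, whereas the groups overlapped for the other 7. Havcr1 averaged 480 ± 347 CPM in the vehicle libraries and 56.6 ± 34.5 CPM in the glutamine libraries (SD, n = 3 each), an 8.48-fold difference by the fit. It was the 1 gene of the 8 in which the groups did not overlap, where 18.8% of all 14734 tested genes did not overlap, 9.81% with glutamine lower and 9.01% with glutamine higher, so that 1 of 8 lies near the share over all genes. Its adjusted p in edgeR's quasi-likelihood test over all tested genes was 0.178, above the threshold of 0.05. No gene passed it, so the share called was 0% over all genes, while 1878 genes (12.7%) had an unadjusted p below 0.05 and DESeq2 called 308 (2.37% of the 13016 to which it gave an adjusted p), Havcr1 among them. Higher and lower are used throughout for measured values and not for a passed test.

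**Figure D1:**
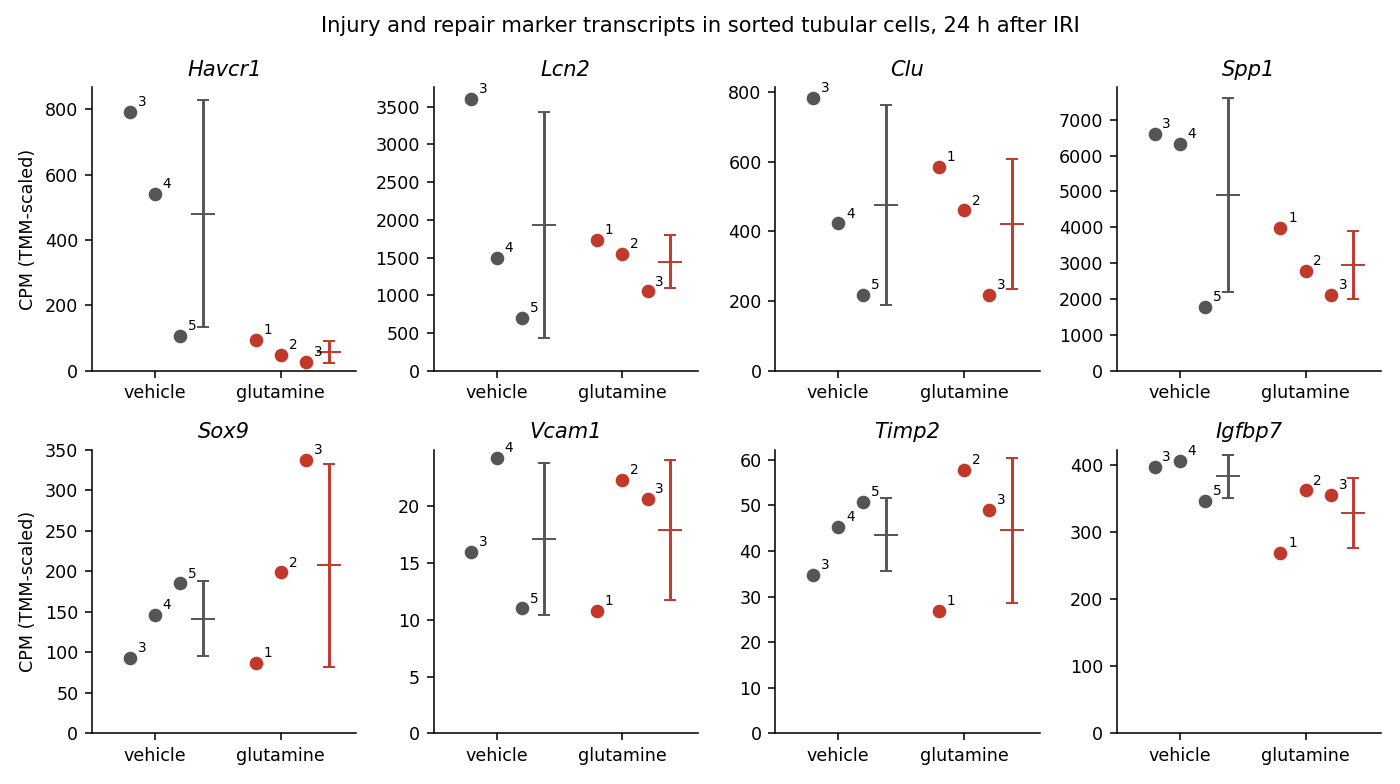
Level of each marker in every TEC library, in TMM-scaled CPM on linear axes from 0, with points numbered by library and bars giving the group mean and SD (n = 3). Only Havcr1 has all its glutamine points, from 26.2 to 94.1 CPM, below all its vehicle points, from 106.0 to 792.8 CPM.

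Havcr1 encodes the phosphatidylserine receptor KIM-1, with which injured proximal tubule cells take up apoptotic debris. The gene lies at chr11:46735080-46779578 on the plus strand (GRCm38). Its level in TECs was 792.8, 540.6 and 106.0 CPM in vehicle libraries 3, 4 and 5, and 94.1, 49.4 and 26.2 CPM in glutamine libraries 1, 2 and 3. Vehicle library 5 lay close to the highest glutamine library and far from the other vehicle libraries, and the groups did not overlap. The vehicle libraries differed among themselves by 7.48-fold, which is nearly as much as the groups did. The log2 fold change was -3.08 (SE 0.65), with an unadjusted p of 0.000588 in edgeR. By fold this was the 11th lowest of the tested genes, and by p it ranked 47th. An exact permutation test of the 2 groups gave a two-sided p of 0.1, the smallest that 3 against 3 libraries allow. The estimated counts behind these levels ran from 239 to 8037, so counting error was small beside the spread between libraries.

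The adjusted p of Havcr1 depended on the tool and on vehicle library 5. It was 0.0322 with DESeq2 at a log2 fold change of -3.07, and 0.0400 without vehicle library 5 at -3.56. The highest of 15 alternatives was 0.510, without vehicle library 4. The lowest, 3.4e-29 with no filter on low counts, came from a fit whose prior degrees of freedom were infinite against 6.94 with the filter, so that each gene was given the spread of the general trend and not its own (SE 0.26 for Havcr1), and it is not read as support. The fold change itself stayed between -3.67 and -2.52 when each library was left out in turn. In bulk RNA, fewer cells of an expressing type and less RNA per cell cannot be told apart.

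Other tubule transcripts also differed in level beside Havcr1. Slc34a1, the sodium-phosphate cotransporter of the proximal brush border, was at 1318, 1298 and 2374 CPM with vehicle and at 1952, 2595 and 2711 CPM with glutamine. It was thus lowest in the vehicle libraries with the most Havcr1, and the groups overlapped. Among the vehicle libraries alone Kap went the other way and was highest in those with the most Havcr1, at 10385.5, 8501 and 6692 CPM. With glutamine Kap was at 7861, 3903 and 11193 CPM. Its highest value of all thus lay in glutamine library 3, the library with the least Havcr1. By the fit Kap was the 1 proximal tubule marker that was lower (-0.16, SE 0.33). Of the 15 proximal tubule markers 14 were higher with glutamine, 5 of them at an unadjusted p below 0.05, and of the 8 thick limb markers 8 were higher, 4 of them at that level, where the background in this direction was 7.23%. Of 11 tested distal and collecting duct markers 9 were higher, 3 of them at that level, and of 10 endothelial markers 8 were lower, 0 of them at that level. No gene of these lists passed adjustment. The part of these shifts in the Havcr1 difference was not tested.

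Of the TIM family, to which Havcr1 belongs, only Timd2, a ferritin receptor, was also tested in TECs. Timd2 measured 161.6, 135.1 and 86.5 CPM with vehicle and 99.2, 61.5 and 49.7 CPM with glutamine. The groups overlapped, with a log2 fold change of -0.86 (SE 0.30) and an unadjusted p of 0.0161. Havcr2 and Timd4 reached at most 0.721 and 0.1201 CPM in any TEC library and were not tested. Within each library, Havcr1 stood at 490.7, 400.2 and 122.5% of Timd2 with vehicle and at 94.8, 80.4 and 52.8% with glutamine. This ratio, which does not depend on the scaling of libraries and was chosen after the values were seen, did not overlap between groups, and it too mostly restates the difference in Havcr1.

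Lcn2 encodes NGAL, a lipocalin that binds bacterial siderophores and is secreted by injured distal nephron and by neutrophils. The gene lies at chr2:32384633-32388252 on the minus strand. Its TEC level was 3599, 1493 and 694.7 CPM with vehicle and 1729, 1551 and 1052 CPM with glutamine. Vehicle library 3 was the highest and vehicle library 5 the lowest of all 6, with the glutamine libraries in between. Glutamine differed from vehicle by a log2 fold change of -0.42 (SE 0.46, adjusted p 0.727), and without vehicle library 3 the direction turned to 0.39.

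Clu encodes clusterin, a secreted chaperone of damaged tubules, at chr14:65968483-65981547 on the plus strand. Vehicle libraries measured 784.2, 422.9 and 218.8 CPM, and glutamine libraries 585.8, 460.2 and 217.8 CPM. The groups covered nearly the same range, with a log2 fold change of -0.17 (SE 0.44) and an adjusted p of 0.896. Leaving out vehicle library 3 or glutamine library 3 turned it to 0.39 and 0.14.

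Spp1 encodes osteopontin, a matricellular ligand of integrins and CD44 that tubules secrete after injury, at chr5:104435118-104441050 on the plus strand. It was the most abundant of the markers, with 6608, 6323 and 1784 CPM in the vehicle libraries and 3981, 2778 and 2106 CPM in the glutamine libraries. Vehicle libraries 3 and 4 lay above all glutamine libraries, and vehicle library 5 lay below them. By the fit Spp1 had a log2 fold change of -0.73 (SE 0.42), with an unadjusted p of 0.109 and an adjusted p of 0.490. With each library left out in turn, Spp1 ranged from -1.13 to -0.46. It kept its direction under all 15 alternatives, and its adjusted p was 0.102 or more in all but the fit with no filter on low counts, which is not read as support. A predicted gene, Gm42793, overlaps its exons on the same strand, so that some reads could belong to either.

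These 4 transcripts ordered the libraries in the same way. Havcr1, Lcn2, Clu and Spp1 each had vehicle library 3 above 4 above 5, and glutamine library 1 above 2 above 3, an order that 721 of the tested genes (4.89%) shared. Sox9 had the exact reverse order in both groups, as had 755 genes (5.12%). Replicate numbers carry no order of their own, so this describes how the libraries differed within each treatment, and with 6 libraries it is given with no test. The closest pair was Lcn2 and Clu, whose centred log2 levels differed by a root mean square of 0.26 over the 6 libraries. Havcr1 was farther from its nearest marker, Spp1, at 1.20. Within libraries, Havcr1 equalled 11.998, 8.55 and 5.94% of Spp1 with vehicle and 2.36, 1.78 and 1.24% with glutamine. Against Lcn2 it was 22.0, 36.2 and 15.3% with vehicle and 5.44, 3.19 and 2.49% with glutamine. Against Clu it was 101.1, 127.8 and 48.4% with vehicle and 16.1, 10.7 and 12.03% with glutamine. None of the 3 ratios overlapped between groups. They were chosen after the values were seen and mostly restate the difference in Havcr1 itself, since the other 3 genes differed far less between groups.

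**Figure D2:**
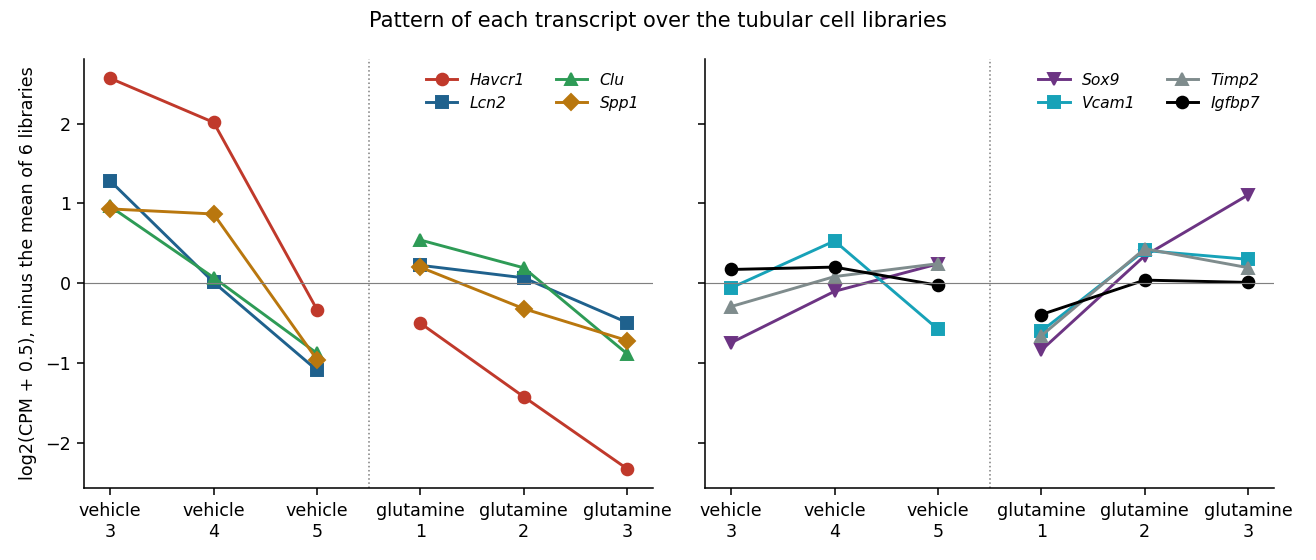
Centred log2(CPM + 0.5) of each marker over the 6 TEC libraries, with lines joining the libraries of 1 treatment only to guide the eye. Havcr1, Lcn2, Clu and Spp1 are highest in vehicle library 3 and glutamine library 1 of their groups, Sox9 is lowest there, and only Havcr1 sits lower in every glutamine library than in any vehicle library.

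By the same measure the tested genes nearest to Havcr1 were Fgb, at 0.64, and Kank3, at 0.76. Fgb, the fibrinogen beta chain that injured tubules also express, had 552.6, 236.9 and 47.8 CPM with vehicle and 95.5, 47.2 and 39.8 CPM with glutamine. Nearest to Lcn2 were Pmepa1 (0.16) and Eif4ebp3 (0.16), nearest to Clu were Nupr1 (0.080) and Pmepa1 (0.12), and nearest to Spp1 were Ehf (0.14) and Vps45 (0.18). Proser1 and Cryl1 lay nearest to Sox9, St6gal1 and Psmc3ip to Vcam1, Rnf26 and 4921524J17Rik to Timp2, and Ier5 and Guk1 to Igfbp7.

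RefSeq promoter windows, covering 250 bases before each annotated start in GRCm38, were on hand for 5 of the 8 markers, not for Clu, Sox9 and Vcam1. They were searched on both strands for TATAAA, for the AP-1 motif TGANTCA, for the STAT motif TTCNNNGAA and for the C/EBP motif TTGCNNAA. The Havcr1 window at the first of its 3 starts and the Spp1 window at the first of its 2 starts are shown because these genes had the lowest fold changes of the 8 and shared their order over the libraries. For Havcr1 the first 88 bases are shown, since the other 162 are exon of another annotated transcript. Capitals mark a motif match.
Havcr1, chr11:46739973-46740060, plus strand: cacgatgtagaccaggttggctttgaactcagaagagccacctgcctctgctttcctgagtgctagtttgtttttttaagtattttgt
Spp1, chr5:104434861-104435110, plus strand: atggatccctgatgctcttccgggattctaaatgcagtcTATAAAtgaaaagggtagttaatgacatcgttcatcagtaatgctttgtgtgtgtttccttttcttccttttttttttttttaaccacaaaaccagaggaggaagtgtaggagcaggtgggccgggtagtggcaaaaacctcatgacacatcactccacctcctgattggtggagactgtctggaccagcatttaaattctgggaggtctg
The Havcr1 window held none of the 4 motifs over its whole 250 bases. Spp1 held TATAAA 211 to 206 bases before the start, a motif found in 12.4% of all 32851 windows, and Lcn2 held TTGCTCAA, a match to TTGCNNAA, 216 to 209 bases before its start, where 9.56% of windows hold one. TGANTCA and TTCNNNGAA, present in 6.75% and 7.02% of windows, matched in none of the 5 markers. The windows of Timp2 and Igfbp7 held no match to any of them. The other Havcr1 and Spp1 starts had 2 further matches to TTGCNNAA. Of the Lcn2 and Timp2 windows, 197 and 203 of the 250 bases are exon of annotated transcripts of the same gene, so that these windows are only in part upstream sequence. A match describes the letters in the window and is not evidence of binding.

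Sox9, the transcription factor that tubule cells switch on as they repair, lies at chr11:112782224-112787760 on the plus strand. It measured 93.1, 145.8 and 185.1 CPM in vehicle libraries 3, 4 and 5, and 87.2, 198.7 and 337.4 CPM in glutamine libraries 1, 2 and 3. The highest and the lowest value both came from glutamine libraries, and the groups overlapped. The log2 fold change of 0.56 (SE 0.41, adjusted p 0.6003) rested on glutamine library 3, without which it was 0.0098.

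Vcam1, an adhesion molecule for leukocyte integrins that marks maladaptive tubule cells, lies at chr3:116109949-116129688 on the minus strand. Its levels were 16.0, 24.3 and 11.005 CPM with vehicle and 10.8, 22.3 and 20.6 CPM with glutamine. The groups overlapped throughout, and the log2 fold change of 0.06 (SE 0.37, adjusted p 0.961) turned to -0.13 when libraries were scaled by their totals alone. That scaling moved the median of all tested genes by -0.17. An antisense gene, Gm43109, overlaps its exons. Whether the counting kept reads of either strand apart is not known, because its strand setting is not stated.

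Timp2, an inhibitor of metalloproteinases, and Igfbp7, a secreted binding protein of insulin-like growth factors, were close between the groups in most libraries. Timp2, at chr11:118301069-118355740 on the minus strand, measured 34.8, 45.3 and 50.7 CPM with vehicle and 26.9, 57.8 and 49.0 CPM with glutamine. Its log2 fold change was 0.03 (SE 0.29, adjusted p 0.9799) and -0.14 with library totals alone. Igfbp7, at chr5:77349240-77408041 on the minus strand, measured 397.2, 405.6 and 346.2 CPM with vehicle and 268.3, 362.2 and 354.9 CPM with glutamine. Glutamine library 1 was lowest for both genes, and both overlapped between groups. Igfbp7 had the smallest spread of the 8 markers, with a log2 fold change of -0.22 (SE 0.20, adjusted p 0.668). With each library left out in turn, Igfbp7 ranged from -0.30 to -0.095. The gene Polr2b, on the opposite strand, overlaps exons of Igfbp7. The product of the 2 transcripts, in CPM squared, was 13833, 18382 and 17569 with vehicle and 7220, 20950 and 17396 with glutamine. Apart from glutamine library 1, the glutamine libraries stood within or above the vehicle range.

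**Figure D3:**
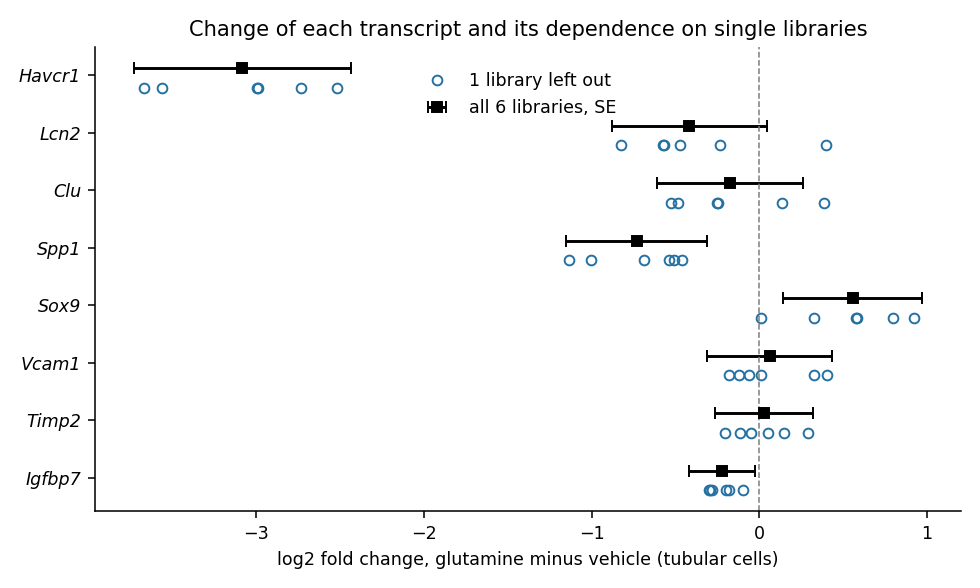
Log2 fold change of glutamine against vehicle in TECs from edgeR (squares, with SE) and the same value with each of the 6 libraries left out in turn (open circles). Havcr1 stays between -3.67 and -2.52, whereas Lcn2, Clu, Vcam1 and Timp2 have values on both sides of 0, and Vcam1 and Timp2 also turn with library totals alone.

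Compared per kilobase of exon, the markers spanned a wide range in vehicle TECs. Division by length takes reads to cover the whole transcript, which was not tested for this RNA primed at the poly(A) tail, so the order is provisional. Spp1 led with 2976 ± 1642 CPM per kb, followed by Lcn2 at 735 ± 572, Igfbp7 at 317 ± 26.6, Havcr1 at 208 ± 150 and Clu at 138 ± 83.3 (SD, n = 3). Sox9 at 34.2 ± 11.2, Timp2 at 11.2 ± 2.08 and Vcam1 at 1.93 ± 0.76 CPM per kb closed the order. Lcn2, Igfbp7, Havcr1 and Clu were not separated from their neighbors beyond 1 SD, while the other steps were. With glutamine Havcr1 stood at rank 6 and not at rank 4, at 24.5 ± 14.9 CPM per kb, below Clu at 123 ± 54.4 and Sox9 at 50.2 ± 30.3. There, Clu, Sox9, Havcr1 and Timp2 overlapped with their neighbors by 1 SD. With the longest transcript as the length, Lcn2, Clu and Vcam1 came in vehicle TECs to 1404, 262.6 and 4.18 CPM per kb, and Clu then stood above Havcr1, at 236.3.

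**Figure D4:**
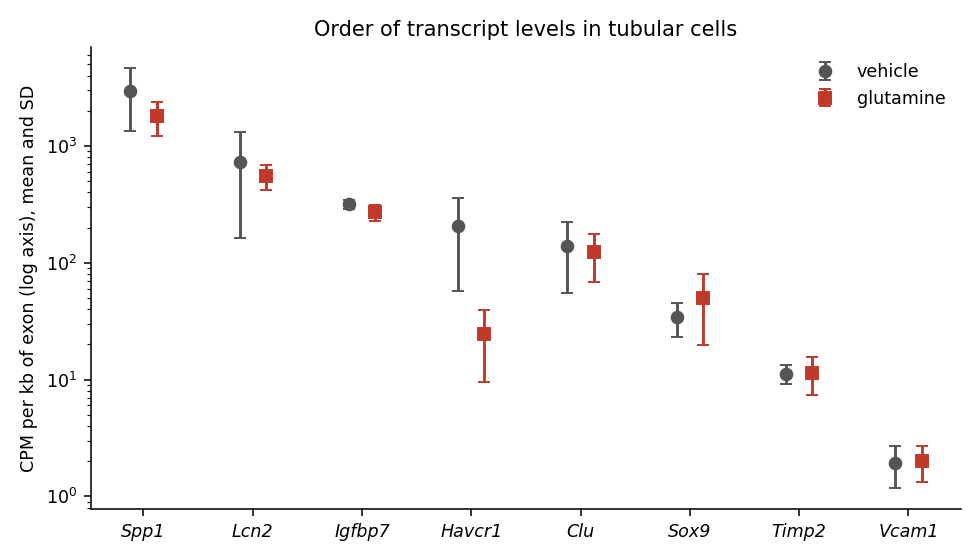
Mean level of each marker in TECs in CPM per kb of exon on a log axis, with SD as bars (n = 3), ordered by the vehicle mean. Spp1 is highest in both groups, at 2976 and 1793 CPM per kb, and Havcr1 is the marker whose group means differ most by ratio, at 208 and 24.5.

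Related genes were read from lists of injury response, family, partner, G1 and regulator genes. Of 29 tested injury response genes, 18 were lower and 11 higher with glutamine, with a median log2 fold change of -0.14 against 0.01 over all tested genes. At an unadjusted p below 0.05, 4 were lower and 0 higher, where 5.51% of all genes were lower at that level, and none passed adjustment. The 4 were Fgb (-2.20, SE 0.67), the calcium-binding S100a6 (-0.94, SE 0.27), the proto-oncogene Myc (-0.72, SE 0.32) and the actin-binding Tpm1 (-0.63, SE 0.22), of which S100a6 and Tpm1 did not overlap between groups. With Plin2, 3 of the 29 did not overlap with glutamine lower, a share near the 9.81% of all tested genes. S100a6 measured 242.2, 171.9 and 122.2 CPM with vehicle and 71.6, 105.7 and 103.0 CPM with glutamine. The most abundant gene of the list was Plin2, which coats lipid droplets, with 5129, 6429 and 5851 CPM with vehicle and 4530, 3626 and 4908 CPM with glutamine. Its groups did not overlap, at a log2 fold change of -0.41 (SE 0.20) and an unadjusted p of 0.0666. Krt20 (-0.21, SE 0.29) and Cdkn1a (0.32, SE 0.33) came next in abundance and overlapped between groups.

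The list of G1 genes, which bear on the reading of TIMP-2 and IGFBP7, holds genes that drive cells out of G1 and genes that hold them there, so its counts give no direction of arrest. Of 11 tested, 7 were lower and 4 higher, with a median of -0.38 against 0.01 over all tested genes. Among the drivers, Cdk2, Cdk4, Cdk6 and Ccnd1 were lower and Ccnd2 and E2f1 higher, and among the brakes, Cdkn1b, Cdkn2b and Rb1 were lower and Cdkn1a and Cdkn1c higher. Cdk2, the kinase that drives entry into S phase, was the 1 gene of these 11 with an unadjusted p below 0.05, where 12.7% of all tested genes were at that level. It measured 10.9, 15.4 and 12.1 CPM with vehicle and 7.93, 7.43 and 8.22 CPM with glutamine, at a log2 fold change of -0.70 (SE 0.32) and an adjusted p of 0.387. Cdkn1a, which encodes the arrest protein p21, was spread from 322.9 to 830.8 CPM with vehicle and from 492.3 to 747.9 CPM with glutamine. The groups did not overlap for Cdk2, Cdk6 and Rb1, which were lower, and for Ccnd2, which was higher, 4 of the 11 genes where 18.8% of all tested genes did not overlap, and the glutamine range of Cdkn1a lay inside its vehicle range. Cdk6 (-0.45, SE 0.21) and Cdk4 (-0.38, SE 0.23) had unadjusted p of 0.0566 and 0.122.

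Of 8 tested TIMP and metalloproteinase genes, 5 were higher and 3 lower, and the sheddase Adam10 was the 1 of them with an unadjusted p below 0.05, a share near the 12.7% of all tested genes. Adam10 measured 34.8, 28.0 and 20.7 CPM with vehicle and 20.1, 14.3 and 14.9 CPM with glutamine, at a log2 fold change of -0.76 (SE 0.28). Its groups did not overlap, by a narrow gap, where 18.8% of all tested genes did not overlap. Timp3 had a log2 fold change of 0.46 (SE 0.28) and Timp4 of -0.49 (SE 0.75). Of 9 tested genes of the IGFBP and IGF axis 6 were higher and 3 lower, with 0 at an unadjusted p below 0.05. Igfbp4, the most abundant of the family, had 558.4, 543.6 and 1037 CPM with vehicle and 684.1, 928.6 and 1165 CPM with glutamine, and Igfbp3 had a log2 fold change of -0.54 (SE 0.41). Both overlapped between groups.

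Receptors and partners of the markers were divided equally, with 7 higher and 7 lower of 14 tested. Integrin subunits that bind osteopontin went both ways: Itgav was higher with glutamine in all libraries (0.32, SE 0.19) and Itgb1 lower in all (-0.33, SE 0.18), with unadjusted p of 0.126 and 0.0898. Itga4, which pairs into the integrin that binds Vcam1, was also higher in all glutamine libraries (0.81, SE 0.42, unadjusted p 0.0787), whereas Itgb3 (-0.44, SE 0.52), Itgb5 (-0.05, SE 0.33) and Itga9 (-0.63, SE 0.57) overlapped between groups. Of the 14 tested partners only Itgav, Itgb1 and Itga4 did not overlap, a share near the 18.8% of all tested genes. The lipocalin receptors Lrp2 (0.08, SE 0.24) and Slc22a17 (0.42, SE 0.50) overlapped between groups. Cd300lf, a receptor of myeloid cells, was the 1 of the 14 partners with an unadjusted p below 0.05, where 12.7% of all tested genes were at that level, with 2.61 ± 0.84 CPM in the vehicle and 6.27 ± 2.53 CPM in the glutamine libraries (SD, n = 3 each, adjusted p 0.360 in edgeR). Macrophage markers were higher beside it in 7 of 9 tested genes, with a median log2 fold change of 0.69 and with Lyz2 at 1.77 ± 0.73 and 6.95 ± 4.77 CPM in vehicle and glutamine libraries, and their part in the Cd300lf value was not tested. Among 13 tested regulators, 8 were higher, 5 lower and 0 at an unadjusted p below 0.05. Stat3, which acts upstream of Lcn2, had 202.0, 223.0 and 222.2 CPM with vehicle and 304.0, 260.9 and 277.0 CPM with glutamine. The groups did not overlap, at a log2 fold change of 0.38 (SE 0.18) and an unadjusted p of 0.0615. Relb was also higher without overlap (0.45, SE 0.23), and Runx1 (-0.41, SE 0.24) and Yap1 (-0.41, SE 0.22) were lower without overlap. Over all tested genes 18.8% did not overlap. Rela (0.14, SE 0.23) and Junb (0.19, SE 0.24) overlapped.

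In PMNs, 6 of the 8 markers had enough counts to be tested, and none passed adjustment. The share called over all 10130 tested genes was 0%, with 346 genes (3.42%) at an unadjusted p below 0.05, made up of 1.37% lower and 2.04% higher with glutamine, while DESeq2 called 237 genes (2.5% of the 9464 to which it gave an adjusted p). None of these was Lcn2, Clu, Vcam1 or Igfbp7, and DESeq2 gave no adjusted p to Spp1 and Timp2. No marker had groups that did not overlap, where 10.5% of the tested genes had such groups, 4.63% lower and 5.87% higher with glutamine. Lcn2, Spp1 and Vcam1 were present in every PMN library, whereas Havcr1 and Sox9 were at 0 in most.

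Lcn2 in PMNs measured 1400, 814 and 1239 CPM in vehicle libraries 1, 2 and 3, and 2025, 1516 and 1311 CPM in glutamine libraries 1, 2 and 3. Glutamine libraries 1 and 2 lay above all vehicle libraries, and glutamine library 3 lay among them. The log2 fold change was 0.49 (SE 0.28) with an unadjusted p of 0.126, and it stayed between 0.27 and 0.63 with each library left out. NGAL takes its name from binding the gelatinase Mmp9, whose transcript had 573.9, 553.3 and 524.7 CPM with vehicle and 1343, 742.6 and 1307 CPM with glutamine. Mmp9 did not overlap between groups, at a log2 fold change of 1.04 (SE 0.29), an unadjusted p of 0.00887 and an adjusted p of 0.852. Of the 6 TIMP and metalloproteinase genes tested in PMNs, 2 were higher and 4 lower. Mmp14, a membrane-bound metalloproteinase, also did not overlap but was lower, at 50.3, 66.4 and 77.3 CPM with vehicle and 2.79, 1.37 and 20.8 CPM with glutamine (log2 fold change -2.96, SE 1.38, adjusted p 0.99996). Over all tested PMN genes, 10.5% did not overlap. Summed neutrophil markers overlapped between groups. In TECs Mmp9 was low, at 1.16 ± 0.74 and 2.41 ± 1.61 CPM (SD, n = 3).

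Spp1 in PMNs was set by 1 library. It measured 19774, 1185 and 969 CPM with vehicle and 992, 928 and 1302 CPM with glutamine. Vehicle library 1, the library with Umod at 1025 CPM and Slc12a3 at 193.1 CPM, stood far above the other 5, which were close to each other. The log2 fold change was -2.77 (SE 1.16, unadjusted p 0.0489, adjusted p 0.99996), and -0.04 without that library. The same library had the highest Clu, at 762 CPM against 0.351 to 37.1 CPM elsewhere, and the highest Sox9, at 19.5 CPM against 0.283 CPM or 0 elsewhere. The log2 fold change of Clu was -4.36 (SE 2.27, adjusted p 0.99996), with a range of -6.47 to -0.56 when each library was left out and -0.56 without vehicle library 1. Of the 8 thick limb markers only Umod and Egf, at 50.1 CPM, reached 10 CPM in vehicle library 1, and the defining transporter Slc12a1 was at 0.401 CPM, with the other 5 between 0 and 0.902 CPM. Of the 13 distal and collecting duct markers only Slc12a3 and Trpm6, at 33.6 CPM, reached 10 CPM there. The part of tubule RNA in these 3 transcripts was not tested.

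Igfbp7 and Timp2 in PMNs were highest in vehicle library 2, the library with endothelial and podocyte markers. Igfbp7 was at 40.1, 129.7 and 4.52 CPM with vehicle and at 0.948, 14.8 and 0.1003 CPM with glutamine. Timp2 was at 0, 61.0 and 0.0476 CPM with vehicle and at 2.001, 3.87 and 12.9 CPM with glutamine. Of the defining endothelial markers, Kdr was at 619.2 CPM in that library and at 0 in the other 5, and Timp3, another inhibitor, was at 2784 CPM against at most 20.9 CPM. The log2 fold change was -3.46 (SE 2.10) for Igfbp7 and -1.70 (SE 2.75) for Timp2, and without vehicle library 2 they were -2.09 and 7.69. The Timp2 value of 7.69 compares with vehicle libraries of 0 and 1 estimated counts, so it is no exact fold. With each library left out in turn Igfbp7 ranged from -6.80, without glutamine library 2, to -2.09. The part of endothelial and podocyte RNA in these values was not tested.

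Vcam1 in PMNs measured 225, 282 and 405 CPM with vehicle and 151, 230 and 644 CPM with glutamine, with the lowest and the highest value both in glutamine libraries. Its log2 fold change of 0.17 (SE 0.58) turned to -0.67 without glutamine library 3. Macrophage markers summed to 11937, 15911 and 23585 CPM with vehicle and to 12499, 22545 and 26471 CPM with glutamine. Their part in the Vcam1 values was not tested. Havcr1 was at 5.33 CPM in vehicle library 3 and at 0 in the other 5 PMN libraries, where a count of 0 allows up to 0.158 CPM (3 counts per library, counting error only). These 5 included vehicle library 1, the PMN library with the most Umod, and the source of its tubule transcripts was not tested. The tables of the 2 cell types were made separately and were not tested against each other.

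**Figure D5:**
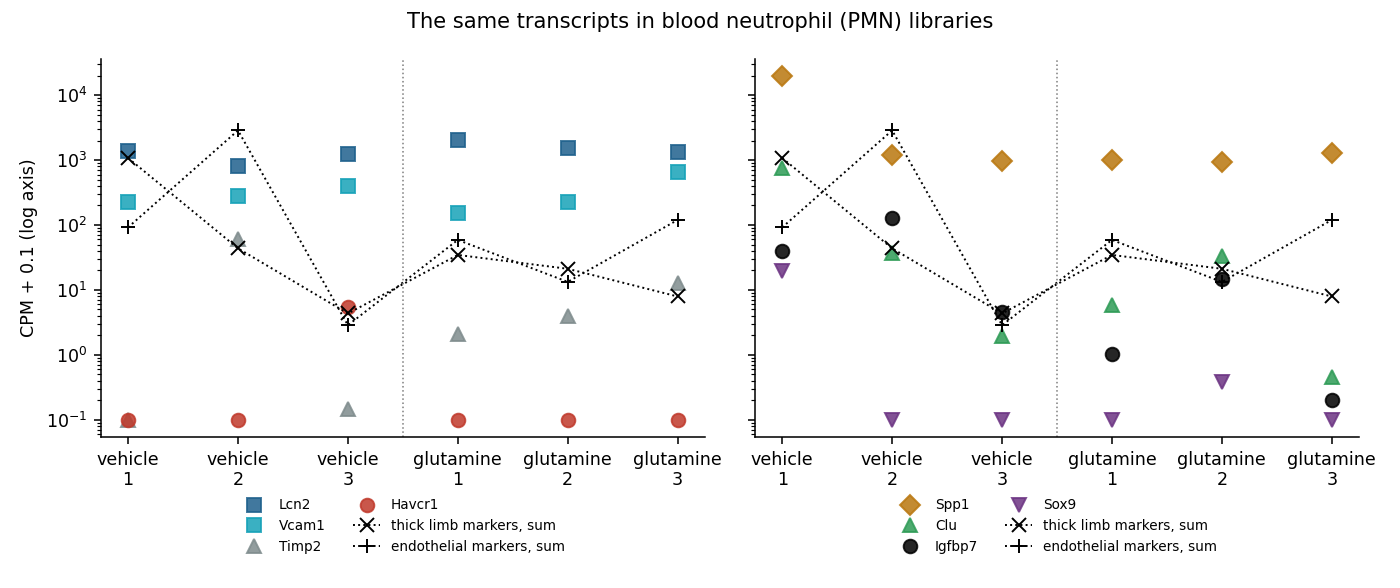
Level of each marker in every PMN library, as CPM + 0.1 on a log axis, with the summed thick limb and endothelial markers as crosses joined by dotted lines in both panels. Spp1, Clu and Sox9 peak in vehicle library 1 together with the thick limb sum, Igfbp7 and Timp2 peak in vehicle library 2 together with the endothelial sum, and Lcn2 and Vcam1 are above 100 CPM in all 6.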

How the data were processed

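Per the labels, RNA from sorted cells was primed at the poly(A) tail and read as single 50-base reads. The submitters' processing notes name FastQC, MultiQC, Trim Galore 0.6.4, Salmon 1.0.0, DESeq2 and mm10, with no settings. The authors deposited estimated counts per gene, 1 column per library for TECs and 2 for PMNs. The PMN values had passed through a spreadsheet: 3.2% had misplaced points and 0.391% were dates, which were decoded to estimated counts and so carry a doubt that the TEC values do not. The 2 columns of a PMN library, which correlated at 0.995 to 0.996 against 0.771 to 0.824 between libraries (log2 of count + 1), were averaged.

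Counts were rounded, filtered with filterByExpr, scaled by TMM and tested for each cell type alone with edgeR 4.0.16 (quasi-likelihood, two-sided, 3 against 3 libraries, Benjamini-Hochberg adjusted p below 0.05 over all tested genes) in R 4.3.3, after a test on simulated data. DESeq2 1.42.0, limma-voom 3.58.1, other scalings, filters and left-out libraries were alternatives. Lengths and positions came from GENCODE M21 (GRCm38). Patterns were compared as centred log2(CPM + 0.5), over tested genes with a mean of at least 5 CPM, and the 2 nearest per marker are named. From the injury, G1 and regulator lists, the 3 most abundant genes are named. Genes of these lists with an unadjusted p below 0.05 or without overlap in TECs are also named. From the other lists, family members and partners are named. Cyr61 and Ctgf were matched as Ccn1 and Ccn2, and Timp1 and Alas2 were not analysed here. The markers and lists were chosen with earlier results of these data known.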

Additional observations from a re-analysis of the deposited data

How the results depend on the processing

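With all libraries, DESeq2 called 308 genes in TECs and 237 in PMNs, where edgeR called 0, and edgeR with no filter on low counts called 425 in TECs, from a fit in which each gene took the trend's spread in place of its own (infinite prior degrees of freedom) and which is not read as support. With each library left out in turn, 0 to 36 genes were called in TECs and 0 in PMNs. Of the markers, 1 was called in TECs, Havcr1, with DESeq2 (-3.07), with no filter (-3.11) and without vehicle library 5, so that 0 to 1 markers were called when a library was left out, with Havcr1 between -3.67 and -2.52. With each library left out, the TEC log2 fold change ranged from -0.82 to 0.39 for Lcn2, from -0.52 to 0.39 for Clu, from -0.18 to 0.40 for Vcam1 and from -0.20 to 0.29 for Timp2, and in PMNs from -0.67 to 0.49 for Vcam1 and from -2.78 to 7.69 for Timp2. In TECs, library totals alone gave -0.13 for Vcam1 and -0.14 for Timp2, and Timp2 was -0.0014 with no filter and -0.053 with limma-voom. In PMNs, limma-voom gave -0.064 for Vcam1 and 3.30 for Timp2. Leaving out PMN vehicle libraries 1 and 2 together, an alternative chosen after seeing the data, gave 2.80 for Clu, 0.13 for Spp1, -0.26 for Vcam1, 6.84 for Timp2 and 0.22 for Igfbp7, with vehicle library 3 as the lone control, which is assumed to vary like the glutamine group. The causes of these changes were not tested. The PMN Timp2 values of 7.69 and 6.84 compare with vehicle libraries of 0 or 1 estimated counts and are no exact folds. No paired analysis was possible because vehicle and glutamine TECs have 1 number in common and PMN numbers only name the libraries.

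In TECs, estimated counts per library ran from 13830 to 70593 for Spp1, from 6818 to 36487 for Lcn2 and from 1986 to 7950 for Clu. The vehicle libraries differed among themselves by 3.70-fold for Spp1, 5.18-fold for Lcn2 and 3.58-fold for Clu. With 3 libraries per group, the shares of this spread and of the depth in the outcome for the abundant markers were not tested. Vcam1 and Timp2 in TECs rested on 90.3 to 506 estimated counts per library, and Havcr1 and Sox9 in most PMN libraries on 0. In PMNs, estimated counts ran from 0 to 1337.5 for Timp2, from 2 to 2844 for Igfbp7 and from 7 to 15207.5 for Clu.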
